A study of Mus musculus with 8 samples.

Results

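The secreted Wnt antagonists examined here are 10 mouse genes chosen by name from 21631 protein-coding genes: Sfrp1, Sfrp2, Frzb, Sfrp4 and Sfrp5, Dkk1 to Dkk4, and Wif1. They were chosen with earlier results of these data known. Their counts beside the share over all genes are therefore descriptions and no independent support. For each gene, sites occupied by the transcription factor GATA2 were counted in the gene body, within 10 kb of the gene and within 100 kb of it. Sites were mapped by chromatin immunoprecipitation and sequencing (ChIP-seq) with a GATA2 antibody in 3T3-L1 cells, a mouse fibroblast line committed to the fat lineage, and in C3H10T1/2 cells, a multipotent mouse embryonic fibroblast line. The labels name no treatment or genetic change for either line. Cells were at passages 4 to 6, and each line has 2 ChIP and 2 input libraries. Per the labels, DNA of individual immunoprecipitations was pooled before sequencing. The data analysed are 1 deposited peak list per line, which holds 2445 peaks for 3T3-L1 and 1557 for C3H10T1/2. A list gives positions and widths only, so neither the cell lines nor the strength of a site could be checked against other values, and the read depth is unknown. Because a line has a single list, nothing measures the spread between cultures, and no difference between the lines was tested.

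Wnt proteins bind Frizzled receptors and the coreceptors Lrp5 and Lrp6 at the cell surface, and in precursor cells of the mesenchyme signalling through beta-catenin favours bone over fat. Secreted antagonists of separate families hold it back. Sfrp proteins, Frzb among them, carry a cysteine-rich domain like that of Frizzled and bind Wnt ligands, as does Wif1 through a different domain. Dkk1, Dkk2 and Dkk4 instead bind Lrp5 and Lrp6, while Dkk3 is the divergent member of its family. GATA2 is a zinc finger factor that binds the DNA core GATA and keeps preadipocytes from maturing.

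In 3T3-L1, 5 of the 10 antagonist genes had a GATA2 peak within 100 kb: Sfrp1, Sfrp2, Sfrp4, Dkk2 and Dkk3. Across all protein-coding genes 13.9% had such a peak. In C3H10T1/2 it was 1 of 10, Dkk3, against 12.1% of all genes. The peak at Dkk3 was the 1 site found in both lines. Frzb, Sfrp5, Dkk1, Dkk4 and Wif1 had no peak of either list within 100 kb. A peak was placed by its centre and its distance was taken to the nearer boundary of the gene, with 0 for a peak inside it. All coordinates are mm10 and count from 1.

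**Figure D1:**
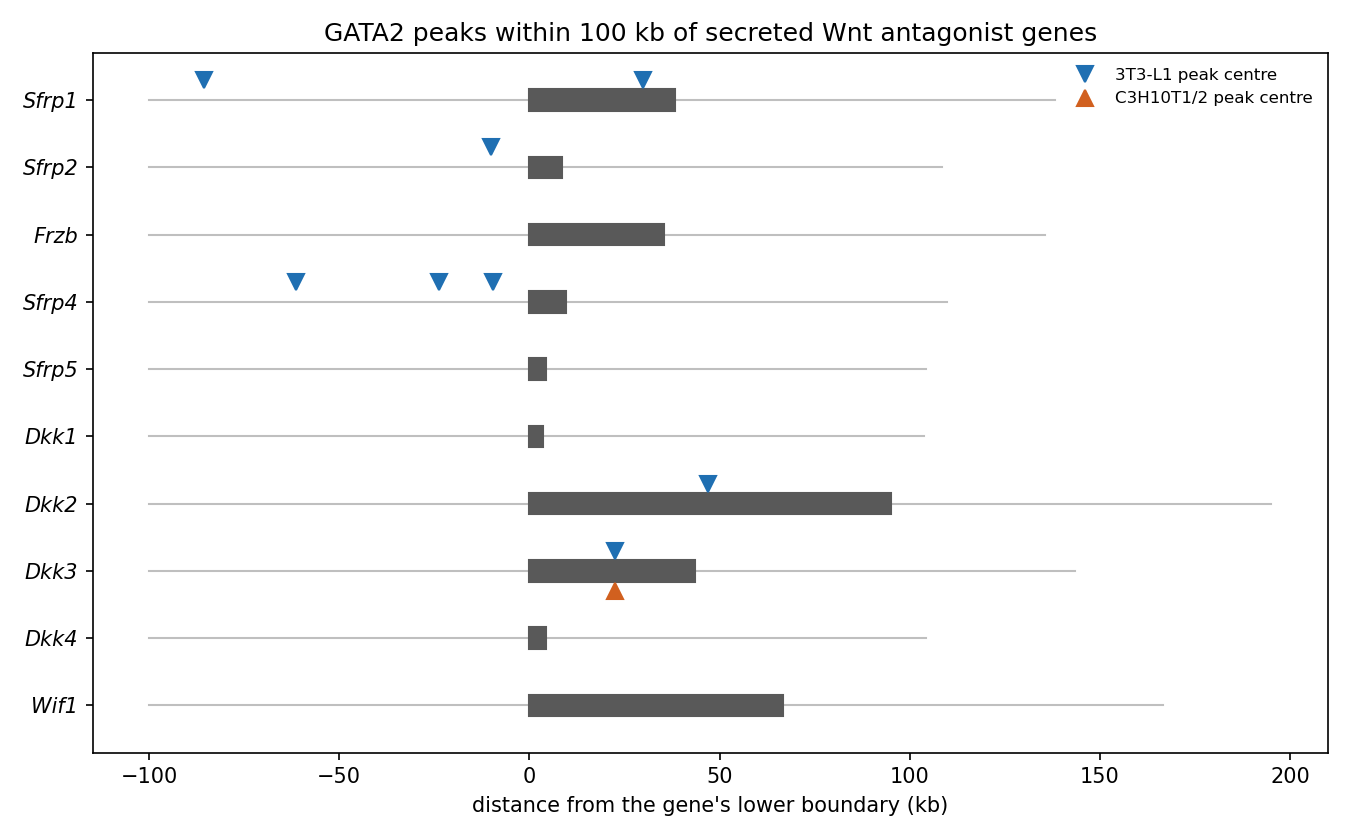
Positions of peak centres within 100 kb of the 10 genes, in kb from each gene's lower boundary. Dark boxes are gene bodies, grey lines are the windows searched, blue triangles are 3T3-L1 peaks and orange triangles are C3H10T1/2 peaks. There are 8 blue triangles at 5 genes and 1 orange triangle, at Dkk3.

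No peak lay close to a boundary of any of the 10 genes: the nearest, in Sfrp1, was 8.43 kb from one. The RefSeq promoter table (GRCm38.p6, the mm10 assembly) holds 6 of the 10 genes, namely Sfrp2, Frzb, Sfrp5, Dkk1, Dkk2 and Wif1, and no peak of either list overlapped the 300 bases given around the start of any of them. Over all 21045 promoter windows of protein-coding genes, 0.157% overlapped a 3T3-L1 peak and 0.19% a C3H10T1/2 peak. The 250 bases before the start are printed for 4 genes. The start is that of the promoter table and can differ from the gene boundary used for counting. For Sfrp2 it is 83766321, inside the gene's boundaries of 83765750 to 83774314, so all its printed bases lie within the gene. For Dkk2 it is 132085292, against a lower boundary of 132085266. Sfrp2 and Dkk2 are shown because each has a 3T3-L1 peak within 100 kb, and Frzb and Sfrp5 because they hold the GATA motif but have no such peak. All are written 5′ to 3′ on the gene's strand, and capitals mark matches to the GATA consensus on either strand. It was searched in the forms AGATAA and AGATAG, and likewise TGATAA and TGATAG, with the reverse complement of each. No match printed here overlaps another.
Sfrp2, chr3:83766071-83766320, plus strand: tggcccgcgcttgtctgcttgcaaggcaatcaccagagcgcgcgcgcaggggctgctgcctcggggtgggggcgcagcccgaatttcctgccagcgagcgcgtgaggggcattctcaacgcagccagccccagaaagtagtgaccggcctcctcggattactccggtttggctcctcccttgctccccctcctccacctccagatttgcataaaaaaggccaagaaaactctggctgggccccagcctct
Dkk2, chr3:132085042-132085291, plus strand: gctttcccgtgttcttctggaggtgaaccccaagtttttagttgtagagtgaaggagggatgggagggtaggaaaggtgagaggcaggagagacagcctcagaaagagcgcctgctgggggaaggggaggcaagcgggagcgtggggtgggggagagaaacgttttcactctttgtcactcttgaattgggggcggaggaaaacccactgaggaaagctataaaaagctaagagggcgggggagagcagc
Frzb, chr2:80447397-80447646, minus strand: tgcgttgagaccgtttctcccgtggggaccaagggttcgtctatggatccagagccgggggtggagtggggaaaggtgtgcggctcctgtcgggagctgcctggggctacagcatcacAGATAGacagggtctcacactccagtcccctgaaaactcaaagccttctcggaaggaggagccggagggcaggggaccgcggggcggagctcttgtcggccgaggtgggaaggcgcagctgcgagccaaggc
Sfrp5, chr19:42202253-42202502, minus strand: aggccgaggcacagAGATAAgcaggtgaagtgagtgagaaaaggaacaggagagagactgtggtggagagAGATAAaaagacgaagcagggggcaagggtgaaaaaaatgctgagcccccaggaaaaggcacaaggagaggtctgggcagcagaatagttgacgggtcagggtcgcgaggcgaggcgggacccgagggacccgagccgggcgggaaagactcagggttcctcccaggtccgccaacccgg

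The promoter windows could be searched for 6 of the 10 genes, and for 2 of the 5 with a 3T3-L1 peak within 100 kb. Sfrp5 held 2 matches of AGATAA, at 236 to 231 and 180 to 175 bases before its start, and Frzb held 1 match of AGATAG, at 132 to 127 bases before. The windows of Sfrp2, Dkk2, Dkk1 and Wif1 held none. At least 1 match stood in 23.6% of all 21045 windows of this length and at least 2 in 5.52%, beside 2 of the 6 antagonist genes with a match. A match of these letters is a description of the sequence, and its absence says only that the letters are not in this window.

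Among the Wnt-binding antagonists, Sfrp1 was the only one of the Sfrp genes with a peak in its body. Sfrp1 encodes a Wnt-binding inhibitor and lies on chromosome 8 from 23411383 to 23449632. Its 3T3-L1 peak ran from 23441167 to 23441247, was 81 bp wide and lay 29.8 kb above the lower boundary, 78% of the way through the gene. A second 3T3-L1 peak, 174 bp wide, ran from 23325637 to 23325810, 85.7 kb below the gene, where the Golgi gene Golga7 was nearer at 66.8 kb. No other protein-coding gene lay within 100 kb of Sfrp1. The nearest C3H10T1/2 peak was 647 kb away. Thus both Sfrp1 peaks belonged to the 3T3-L1 list alone.

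Sfrp2 and Sfrp4 each had a 3T3-L1 peak about as far from the gene as the 10 kb window reaches. Sfrp2 (chromosome 3, 83765750 to 83774314) had 1 peak, at 83755514 to 83755700, with its centre 10143 bp below the gene, just outside that window. Since the gene is on the plus strand, the peak lay upstream, 10.7 kb before the start used in the promoter table. Sfrp2 was the nearest protein-coding gene to it, and the next was the Toll-like receptor gene Tlr2 at 80.7 kb. Sfrp4 (chromosome 13, 19623175 to 19632825) had 3 peaks, all on its lower side. The nearest ran from 19613380 to 19613565, 9.7 kb from the gene and so just inside the 10 kb window. The next ran from 19599385 to 19599490 at 23.7 kb, and the farthest from 19561746 to 19561867 at 61.4 kb. The nearer pair lay in the body of the neighbouring gene Epdr1, and Epdr1 was the nearest gene to all 3. Of all protein-coding genes, 0.707% had at least 3 peaks of 3T3-L1 within 100 kb.

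In C3H10T1/2 no Sfrp gene had a peak within 100 kb. The nearest was 237 kb from Sfrp2, inside Tmem131l, and 431 kb from Sfrp4. The Tmem131l site was shared: the 3T3-L1 peak ran from 84011117 to 84011220, inside the C3H10T1/2 peak of 84011044 to 84011247. The peak close to Sfrp2 was in the 3T3-L1 list alone, and over that whole list 22.4% of peaks were shared. Within 1 Mb of Sfrp2 there were 6 peaks of 3T3-L1 and 5 of C3H10T1/2, not all of which are described here.

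Frzb, Sfrp5 and Wif1 were far from peaks in both lists. Frzb, also known as Sfrp3 (chromosome 2, 80411970 to 80447396), had its nearest peaks in the phosphodiesterase gene Pde1a, 427 kb away in 3T3-L1 and 498 kb away in C3H10T1/2. Sfrp5, known as a secreted factor of fat tissue (chromosome 19, 42197971 to 42202252), was 1.32 Mb from its nearest peak in both lists, a shared site at the boundary of the aminotransferase gene Got1. Wif1 (chromosome 10, 121034004 to 121100642) was 2.02 Mb from the nearest 3T3-L1 peak and 605 kb from the nearest C3H10T1/2 peak, which lay in Hmga2, the gene of a chromatin protein. Of all protein-coding genes, 54.7% were more than 500 kb from a 3T3-L1 peak and 60.8% from a C3H10T1/2 peak, and 34.1% and 41.0% were more than 1 Mb away. Distances of this size are common in lists of these lengths.

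Of the Dkk genes, Dkk2 and Dkk3 had peaks in their bodies. Dkk2 is on the plus strand of chromosome 3 (132085266 to 132180304), and its 3T3-L1 peak at 132132205 to 132132285 was 81 bp wide and lay 47.0 kb downstream of the start, 49.4% of the way through the gene. No other protein-coding gene lay within 100 kb of Dkk2, and the next nearest to the peak, Papss1, was 489 kb away. A further 3T3-L1 peak at 132326947 to 132327049 lay beyond the 100 kb window, 147 kb above the gene. The nearest C3H10T1/2 peak was 282 kb below Dkk2, from 131802886 to 131803152, and overlapped a 3T3-L1 peak at 131802931 to 131803060. The peak inside Dkk2 and the peak at 147 kb were in the 3T3-L1 list alone, as was another 242 kb below the gene. Over the whole 3T3-L1 list 22.4% of peaks were shared, so an unshared peak is the usual case.

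Dkk3 (chromosome 7, 112116019 to 112159482) was the exception, with 1 peak in each list at the same place. The 3T3-L1 peak ran from 112138357 to 112138495 (139 bp) and the C3H10T1/2 peak from 112138363 to 112138486 (124 bp). The second lay wholly within the first, with an overlap of 124 bp and centres 1.5 bp apart. The site lay 22.4 kb above the lower boundary, 51.6% of the way through the gene by the 3T3-L1 centre, and the nearest other protein-coding gene, the deubiquitinase gene Usp47, was 27.0 kb away. Across all protein-coding genes, 1.18% had a peak of both lines in the body, whether or not at the same place. A shared 3T3-L1 peak lay in the body of 0.98% and a shared C3H10T1/2 peak in that of 0.985%.

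The Lrp-binding antagonists Dkk1 and Dkk4 had no peak within 100 kb, but both were nearer to a C3H10T1/2 peak than to a 3T3-L1 peak. Dkk1 (chromosome 19, 30545876 to 30549496) was 228 kb from the nearest C3H10T1/2 peak, at 30317476 to 30317644, and 879 kb from the nearest 3T3-L1 peak. Dkk4 (chromosome 8, 22623685 to 22628018) was 137 kb from a C3H10T1/2 peak at 22764719 to 22764924, and 698 kb from the nearest 3T3-L1 peak. That C3H10T1/2 peak lay inside Plat, which encodes tissue plasminogen activator, and the 3T3-L1 peak is the distal one of Sfrp1, since Sfrp1 and Dkk4 are on the same chromosome. Neither C3H10T1/2 peak was shared.

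**Figure D2:**
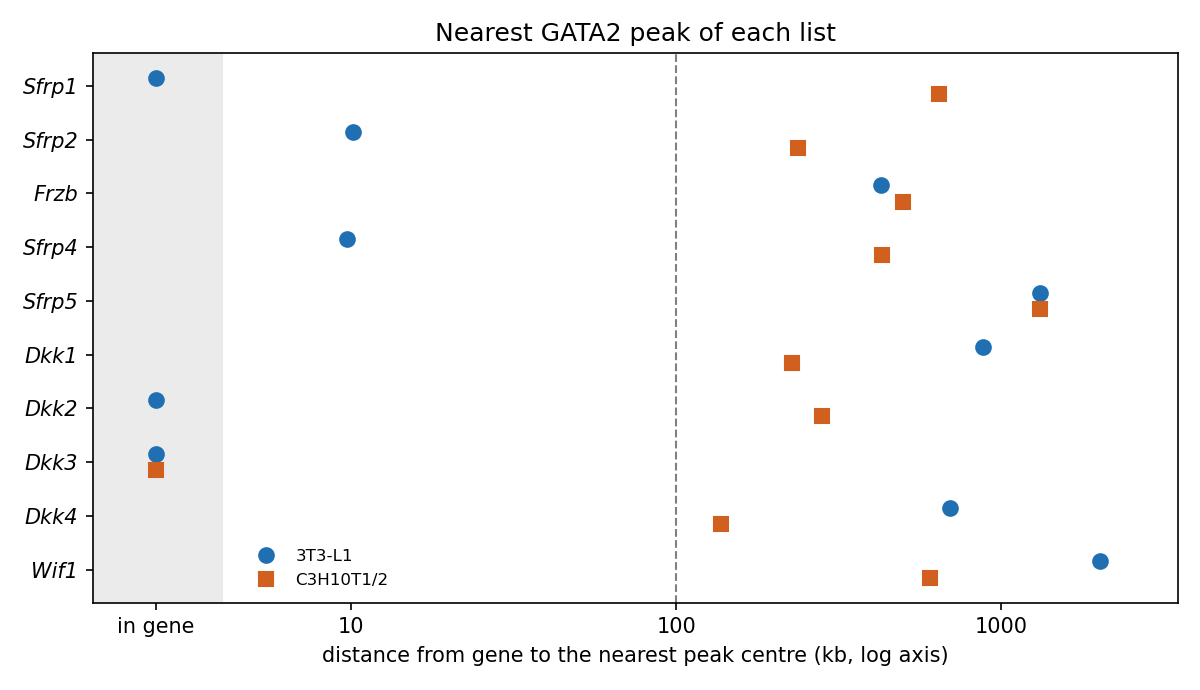
Distance from each gene to the nearest peak centre of each list, in kb on a log axis; points in the grey band are peaks inside the gene, and the dashed line marks 100 kb. In 3T3-L1 the 5 genes with a peak in the window lie at 10.1 kb or less and the others at 427 kb or more, while in C3H10T1/2 Dkk3 lies at 0 and the other genes at 137 kb or more.

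The distances in 3T3-L1 thus left a wide gap. The 5 genes with a peak had it inside the gene or at most 10.1 kb away, and the other 5 lay 427 kb to 2.02 Mb from one. The median distance over the 10 genes was 219 kb in 3T3-L1 and 356 kb in C3H10T1/2. Over all protein-coding genes the medians were 588 kb and 743 kb.

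Close to the genes the 3T3-L1 counts were smaller, while the C3H10T1/2 count stayed at 1 of 10. Counting the body and 10 kb on each side, 3T3-L1 had a peak at 4 of 10 genes, Sfrp1, Sfrp4, Dkk2 and Dkk3, against 3.96% of all genes. In C3H10T1/2 it was 1 of 10, against 3.64%. Inside the body it was 3 of 10 in 3T3-L1 (2.79% of all genes) and 1 of 10 in C3H10T1/2 (2.59%). Body counts follow gene length. Of the 5 antagonist genes of 30 to 100 kb, 3 held a 3T3-L1 peak and 1 held a C3H10T1/2 peak inside, where 3.45% and 3% of all genes of that length did. The 5 genes under 10 kb had none, and 0.155% and 0.168% of all such genes did.

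Most sites at these genes were in the 3T3-L1 list alone. Of the 8 peaks of 3T3-L1 within 100 kb, 1 overlapped a peak of C3H10T1/2 by at least 1 bp (12.5%, 95% exact Clopper-Pearson interval 0.316 to 52.7, which covers counting error only), against 22.4% of the whole list. The 1 peak of C3H10T1/2 was shared, against 34.7% of its list. The interval holds the share of the whole list, so 8 peaks cannot show a difference in sharing. It also takes the peaks as independent, although 3 of them lay near Sfrp4 and 2 near Sfrp1. By gene, 4 of 10 had a peak of 3T3-L1 alone within 100 kb (7.54% of all genes), 1 had a peak of both lines (6.35%) and 0 had a peak of C3H10T1/2 alone (5.7%). For the 7 unshared peaks the nearest C3H10T1/2 peak was about 256 kb or more away, so none was a near miss of the overlap rule.

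The peaks at these genes were not wide. Their widths in 3T3-L1 were 81 and 174 bp at Sfrp1, 187 bp at Sfrp2, 186, 106 and 122 bp at Sfrp4, 81 bp at Dkk2 and 139 bp at Dkk3. The median was 130.5 bp and 5 of the 8 lay under the 144 bp median of the list, whose quartiles were 105 and 200 bp. The peaks in Sfrp1 and Dkk2 had the commonest width of the list, 81 bp, which 106 of the 2445 peaks share, and 7.81% of the list was as narrow or narrower. Peaks of that width were shared less often, 12 of 106 (11.3%) against 22.9% of the others. In C3H10T1/2 the Dkk3 peak also had the commonest width, 124 bp, as did 98 of the 1557 peaks, of which 19.4% were shared. The commonest width was not the lowest, since the 3T3-L1 list held 85 narrower peaks and the C3H10T1/2 list 51. Whether a setting of the peak calling fixed these widths was not tested, so the widths at Sfrp1, Dkk2 and Dkk3 may not measure the extent of a site. Whether such peaks are weaker sites was not tested either, because the lists hold no score. With peaks of at least the median width alone, 3 of 10 genes (Sfrp1, Sfrp2 and Sfrp4) had a 3T3-L1 peak within 100 kb, against 7.69% of all genes, and 1 of 10 (Sfrp4) had one in the body or within 10 kb, against 2.17%. No gene of the 10 had such a peak in C3H10T1/2, where 6.91% and 1.98% of all genes did.

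**Figure D3:**
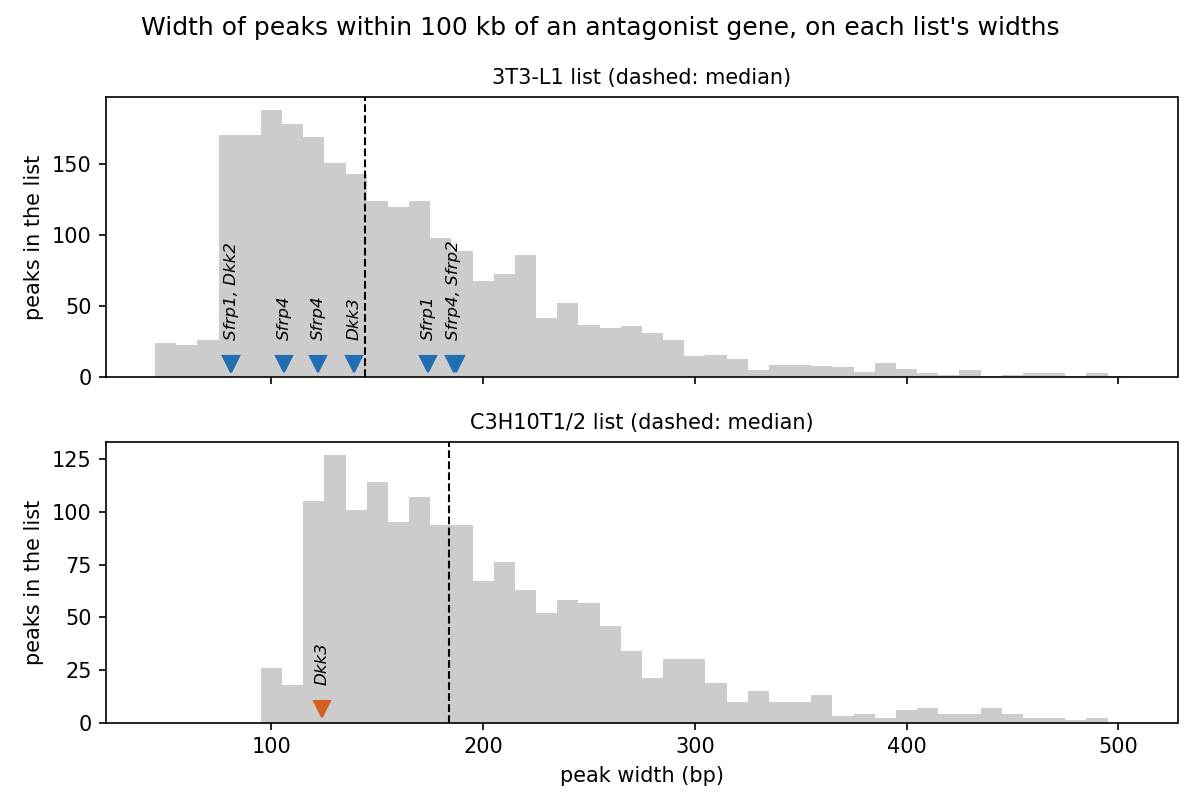
Histograms of peak width in bp for each list (bins of 10 bp, not drawn are 36 wider than 500 bp in 3T3-L1, 17 in C3H10T1/2); triangles mark the peaks within 100 kb of an antagonist gene, named above them, and dashed lines are the list medians. The 8 triangles of 3T3-L1 lie between 81 and 187 bp, and the 1 triangle of C3H10T1/2 at 124 bp.

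For other genes of the pathway the 3T3-L1 counts were near the share over all genes. Of 71 further Wnt pathway genes, 11 (15.5%, against 13.9% of all genes) had a 3T3-L1 peak within 100 kb and 16 (22.5%, against 12.1%) had a C3H10T1/2 peak. Peaks of both lists lay within 100 kb of 8 of the 71, where 6.35% of all genes had both. In the body or within 10 kb the counts were 2 (2.82%, against 3.96%) for 3T3-L1 and 7 (9.86%, against 3.64%) for C3H10T1/2. The antagonists had the higher count in 3T3-L1 and the rest of the pathway in C3H10T1/2, but neither difference between the lines was tested. For the 19 Wnt ligand genes neither list held a peak centre within 100 kb. A C3H10T1/2 peak near Wnt2b, named after its value was seen, had its centre 100014 bp from the gene and its edge inside the window, so by any overlap the C3H10T1/2 count was 1 of 19. Of the 15 receptor genes, 3 had a 3T3-L1 peak and 5 a C3H10T1/2 peak within 100 kb.

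Of the 71 pathway genes outside the antagonists, 7 had a peak of either list in the body or within 10 kb. Across all protein-coding genes 5.92% had one. Wls, whose product carries Wnt proteins to the cell surface, had a shared peak in its body on chromosome 3, where the 3T3-L1 peak spanned 159885251 to 159885367 and the C3H10T1/2 peak 159885265 to 159885447. Lgr4, an R-spondin receptor, had 2 peaks of each list in its body, the first reaching from 109945284 to 109945375 on chromosome 2 in 3T3-L1 and shared. Peaks of C3H10T1/2 but not of 3T3-L1 lay in the bodies of Ror1, a receptor for Wnt5a, of the R-spondin gene Rspo2 and of the nuclear effectors Tcf7l1 and Tcf7l2. Both nuclear effectors had a 3T3-L1 peak within 100 kb, at 24.4 kb from Tcf7l1 and 88.8 kb from Tcf7l2. Dvl2, which relays the signal from Frizzled, had a C3H10T1/2 peak 9.51 kb below it. Among 5 partners and relatives of the Dkk proteins and their receptors, Sostdc1, an inhibitor of BMP and Wnt signals, had peaks of both lists within 100 kb, 74.6 kb away in 3T3-L1 and 25.8 kb away in C3H10T1/2. The Dkk receptor genes Lrp5, Lrp6, Kremen1 and Kremen2, named here after their values were seen, had no peak of either list within 100 kb. That is the usual case, since 19.6% of all protein-coding genes had one.

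**Figure D4:**
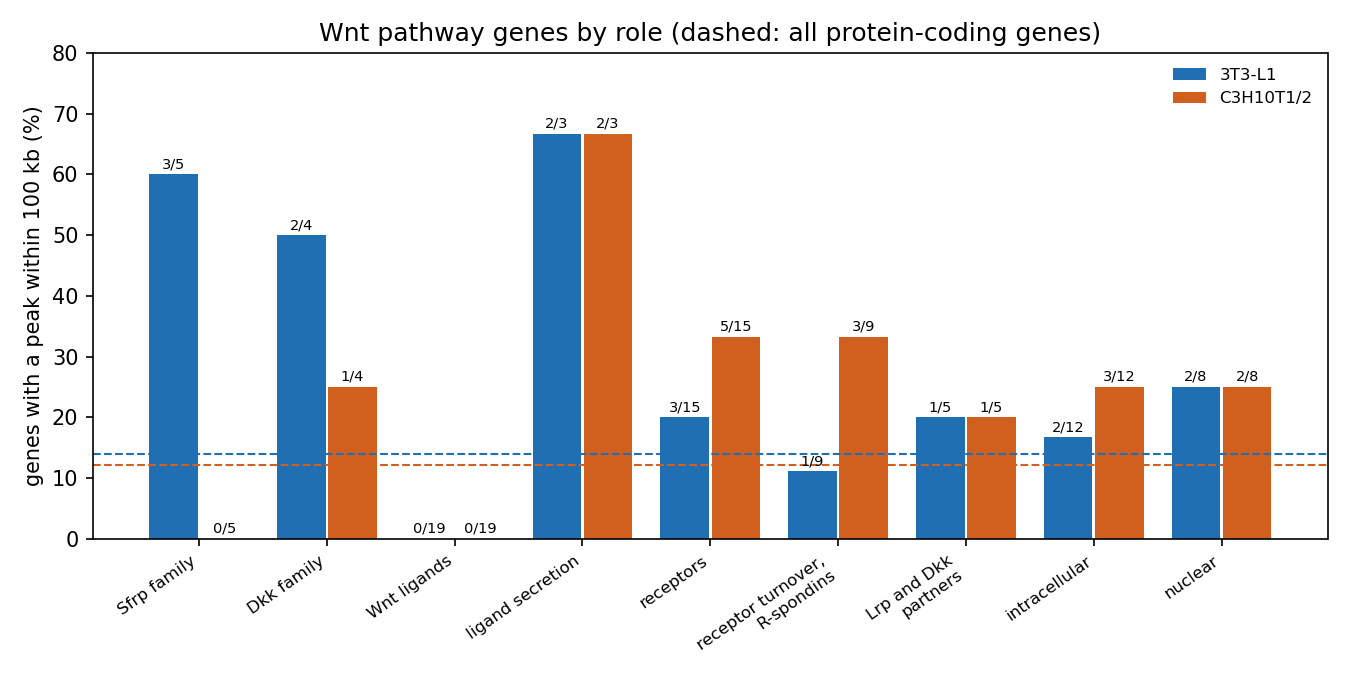
Percent of genes with a peak within 100 kb in each role group of the Wnt pathway, with the number of genes over each bar and dashed lines for all protein-coding genes (13.9% in 3T3-L1, blue, and 12.1% in C3H10T1/2, orange). For 3T3-L1 the Sfrp bar stands for 3 of 5 genes and the Dkk bar for 2 of 4. For C3H10T1/2 they stand for 0 of 5 and 1 of 4, and the Wnt ligands have 0 of 19 genes with a peak centre in the window in either list.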

How the data were processed

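GATA2 ChIP-seq peaks of 3T3-L1 and C3H10T1/2 cells were taken from 1 deposited list per line with 3 columns: chromosome, start and end. Per the submitters' processing notes CASAVA 1.8, Bowtie2, MACS2, SAMtools and bedtools were used with the mm10 build. Their roles, the threshold, the use of input and replicates and any clean-up of the lists are not given in the sources used here; these choices set which weak sites are listed and how wide they are.

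Starts were shifted by 1 to count from 1. Genes came from the RefSeq table of GRCm38.p6 (boundaries without strand or exons) on 20 chromosomes, and strands and promoters from the RefSeq promoter table. Counting was tested on simulated peaks. All 10 antagonists and all 71 other Wnt pathway genes matched by symbol. The antagonists and lists were chosen with earlier results of these data known. All 10 antagonists are named, as are genes nearer to their peaks or holding them; other pathway genes are named where a peak lies in the body or within 10 kb, beside Sostdc1, Wnt2b and the Dkk receptors. No set test or random list was used. Python 3.11.15, pandas 2.3.3, NumPy 2.4.6, SciPy 1.17.1 and matplotlib 3.10.9 were used.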

Additional observations from a re-analysis of the deposited data

How the results depend on the processing

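No paired analysis was possible because each line has 1 peak list and no value per replicate, and for the same reason no replicate could be left out. Of 48 values recomputed under other settings, 34 were unchanged or stayed near the reported value (counts within 1.5 times, shares inside their interval, the 3T3-L1 median width inside the range of its peaks) and 14 moved. The C3H10T1/2 median rests on 1 peak, so any change counted as a move. With peaks of at least the median width of their list, antagonist genes with a 3T3-L1 peak within 100 kb fell from 5 to 3 (Sfrp1, Sfrp2 and Sfrp4, with 3 peaks; 7.69% of all genes) and those in the body or within 10 kb from 4 to 1 (Sfrp4; 2.17% of all genes), and every C3H10T1/2 count was 0. Leaving out peaks of the commonest width was a setting chosen after seeing the data. The 3T3-L1 count within 100 kb was then 4 (13.2% of all genes): Dkk2 dropped out, and Sfrp1 stayed through its 174 bp peak, which is nearer to Golga7. In the body or within 10 kb it was 2 (Sfrp4 and Dkk3, 3.73% of all genes). Every C3H10T1/2 count was 0 (11.4% of all genes within 100 kb and 3.43% in the body or within 10 kb). When a peak counted for the nearest gene only, 4 peaks of 3T3-L1 remained and Sfrp4 had none. A window of 200 kb added Dkk4, giving 2 genes and 2 peaks in C3H10T1/2 with a median width of 165 bp. The share of all genes was not computed for windows of 50 and 200 kb or for the nearest gene only. Counts under these settings therefore cannot be set against all genes. The 5 genes with a 3T3-L1 peak were the same with windows of 50 and 200 kb and without dense blocks. Those windows could not change the set, since its genes lay 10.1 kb or less from a peak and the others 427 kb or more. Counting peaks within 10 kb of each other as shared could likewise add none in 3T3-L1, where unshared peaks lay about 256 kb or more from the other list. Such fixed outcomes are among the unchanged values.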
